A study of Mus musculus with 2 samples.

Results

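The regions described here are the wide Runx3 peaks of mouse natural killer (NK) cells, selected on their listed width: autosomal peaks whose end lay more than 1000 bp beyond their start. The rule found 2037 members among 19335 autosomal peaks (10.5%), and 19647 peaks were listed in all, 312 of them on the X chromosome, which the rule leaves out. The peaks come from chromatin immunoprecipitation sequencing (ChIP-seq), in which DNA bound by a protein is pulled down with an antibody and sequenced, on splenic NK cells of ICR mice that had been given 2 injections of IL-15/Ra complexes, spaced 2 days apart. NK cells were enriched by negative selection and sorted for NKp46, an activating receptor of these cells, 40000000 cells were used, and the fixed chromatin was sheared to fragments of about 200 bp. The series holds 1 library made with a home-made polyclonal Runx3 antibody and 1 made with non-immune rabbit serum (NIS), and both come from cells treated alike, so no untreated or Runx3-deficient group was compared. The deposited list gives only positions in mm9: the read depth, height and score of each peak are unknown, values of the serum library were not used here, and the identity of the cells could not be checked from the peaks.

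Runx3 belongs to the Runt-domain transcription factors, which bind DNA together with the partner protein Cbfb at a short core sequence and can raise or lower the transcription of nearby genes. It is known for its part in the development and effector functions of cytotoxic T cells and NK cells. In ChIP-seq, the width of a called peak is the length of genome over which reads piled up above the caller's threshold.

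Width alone made a peak a member, and the widths are therefore given as a description. The members had a median width of 1175 bp, and their middle 50% lay between 1073 and 1338 bp, whereas the other autosomal peaks had a median of 581 bp (497 to 708 bp). They covered 2.55 Mb of the 13.1 Mb under all autosomal peaks, or 19.5% of the bases. Most members lay near the lower limit: 921 of the 2037 (45.2%) were wider than 1200 bp, 248 (12.2%) wider than 1500 bp, 40 wider than 2000 bp and 4 wider than 3000 bp. The number of peaks fell smoothly through the limit, from 543 at 901 to 950 bp and 473 at 951 to 1000 bp to 368 at 1001 to 1050 bp and 283 at 1051 to 1100 bp. The narrowest members measured 1001 bp (5 peaks, among them chr4:56814876-56815876 and chr4:133466335-133467335), and the widest peaks left out measured 1000 bp (6 peaks, among them chr2:35350895-35351894 and chr14:70474164-70475163). No break in the widths lay at the limit of 1000 bp.

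**Figure D1:**
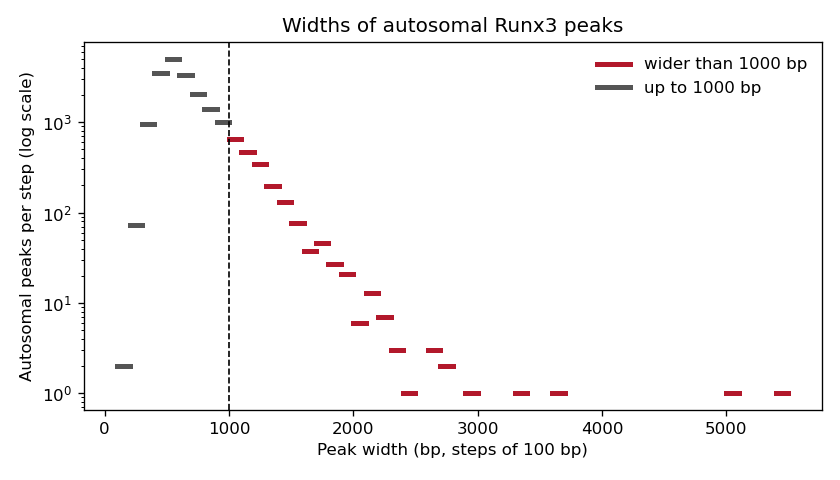
Number of autosomal Runx3 peaks (vertical axis, log scale) by width in bp (horizontal axis, steps of 100 bp), with peaks wider than 1000 bp in red and the limit as a dashed line. The counts fall without a break across 1000 bp, and 4 peaks lie beyond 3000 bp.

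Among the known NK loci named below for holding several wide peaks, those of 2 transcription factors, Runx3 itself and Tbx21, held the most. To find such loci, wide peaks were chained into runs wherever the gap between neighbouring wide peaks, edge to edge, was at most 50 kb. Of the 2037 wide peaks, 1463 (71.8%) stood alone at this distance, and 252 runs held 2 or more: 201 held 2, 37 held 3, 10 held 4, 3 held 5 and 1 held 6. A wide peak lay within 50 kb of 28.2% of the wide peaks and of 26.4% of the other autosomal peaks. How many runs the same number of wide labels would give, spread evenly over the peaks, was not calculated. Gene names given to runs below are background knowledge of the mouse gene map in mm9. No annotation of that build was used here, so where a peak lies within or beside the gene was not measured, and a run can span neighbouring genes. The names were chosen after the runs were seen, and runs without a name were not examined for their genes. Runs of 5 on chromosome 7 were among those without a name, so the named runs give no ranking of all NK loci. Known NK loci that hold no run were not counted.

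The run of 6 lay on chromosome 4 from 134623133 to 134725662, in the part of the chromosome that holds Runx3. Its wide peaks measured 1238, 1274, 1308, 2174, 1088 and 1037 bp in order of position, and the widest of them lay at chr4:134653649-134655822. The run spanned 103 kb and held 17 peaks of any width, of which 35.3% were wide, against 10.5% over all autosomal peaks. A run of 5 lay on chromosome 11 from 96964916 to 97050188, where Tbx21 lies, the gene of the T-box factor T-bet that is needed for NK cell maturation. Its wide peaks measured 1088, 1533, 1099, 1410 and 1182 bp, and it held 17 peaks in 85.3 kb, 29.4% of them wide. These shares are descriptions, since the runs were picked for holding many wide peaks.

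Further runs lay at loci of NK cell survival and killing. A run of 4 on chromosome 2 (127951152 to 128016388) lay where Bcl2l11 is found, the gene of the pro-death protein Bim, which limits the survival of lymphocytes. Its widths were 1363, 1171, 1257 and 1040 bp, and 4 of its 5 peaks were wide. A run of 3 on chromosome 15 (78287353 to 78341701) lay at Il2rb, which encodes the receptor chain shared by IL-2 and IL-15. Its wide peaks measured 1209, 1954 and 1242 bp, and the middle one (chr15:78322876-78324829) was the widest member on that chromosome. A run of 3 on chromosome 10 (60723639 to 60791303) lay at Prf1, the gene of the pore-forming protein perforin. It held 17 peaks in 67.7 kb, and 17.6% of them were wide (1168, 1284 and 1398 bp), against 10.5% over all autosomal peaks. The runs at Runx3 and Tbx21 also held 17 peaks each. Their higher shares therefore only restate the numbers of wide peaks by which runs were ranked, and the difference between these single loci was not tested.

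Runs also lay at genes of inducible transcription factors. On chromosome 8, wide peaks of 1763, 1389 and 1003 bp lay within 9.16 kb (87501257 to 87510417) at Junb, a subunit of the AP-1 factor. On chromosome 11, widths of 1434, 1122 and 1244 bp (53583114 to 53609309) marked the region of Irf1, an interferon-induced factor, and the run held no narrower peak. Irf8, a factor of NK and myeloid cells, lies in the stretch of chromosome 8 from 123191394 to 123285204, where 3 of 13 peaks were wide, none above 1192 bp.

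Runs were ranked by their number of wide peaks and, among equal numbers, by the shorter span, which left out 4 further runs of 4: on chromosome 10 from 80755195, chromosome 8 from 123010230, chromosome 11 from 69139201 and chromosome 16 from 11134022. The remaining 7 of the first 10 are given by position only. On chromosome 7, 5 of 8 peaks were wide from 16858061 to 16899616, 5 of 9 from 29157171 to 29222426 and 4 of 9 from 29565740 to 29606597, the last 2 lying within the same 1 Mb bin. The shortest of the 7 was on chromosome 15 from 76020083 to 76035091, with 4 wide peaks of 1066, 1761, 1530 and 1239 bp among 5 peaks in 15.01 kb. On chromosome 11 from 32432601 to 32462422, 4 of 8 peaks were wide, the widest at 1959 bp. Runs of 4 on chromosome 2 (166445873 to 166492095, of 9 peaks) and on chromosome 5 (141072183 to 141125432, of 8 peaks) reached widths of 1248 and 2020 bp.

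**Figure D2:**
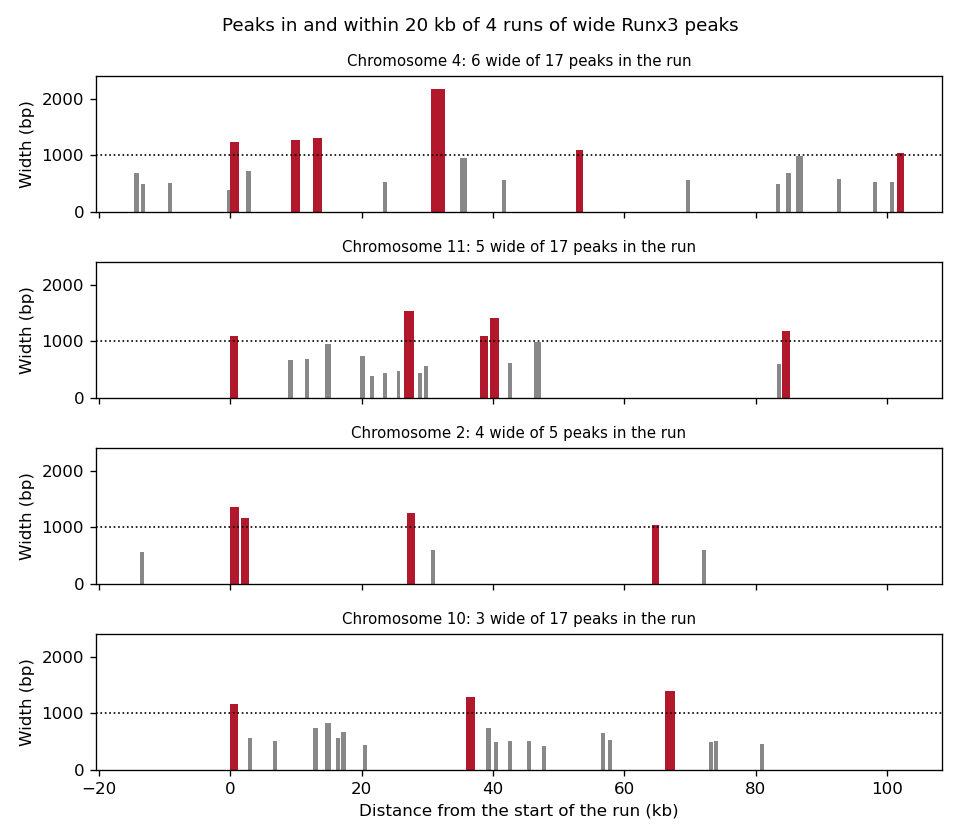
Width in bp (vertical axes) of each Runx3 peak by its distance in kb from the start of the run (horizontal axis) for 4 runs of wide peaks, on chromosomes 4, 11, 2 and 10, with peaks wider than 1000 bp in red, others in grey and 1000 bp as a dotted line. The run on chromosome 4 has 6 wide peaks among 17, and the run on chromosome 10 has 3 among 17.

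Because peaks and genes are on different builds, no peak sequence is printed. The 250 bases before the annotated starts of named genes are shown as context for the core letters that Runx proteins are known to prefer. They come from RefSeq in GRCm38.p6, and their coordinates must not be set against the mm9 positions of the peaks. The letters searched were TGTGGT and TGCGGT on both strands, that is also ACCACA and ACCGCA, which do not overlap one another in the matches found. Of 32851 RefSeq windows of this length, 18.6% held at least 1 match and 2.01% held 2 or more. The 10 genes named in the text were looked up, and 8 of them were found among these windows (not Il2rb and Ets1). They had 12 windows, of which 5 held a match to the letters. The sequences below run 5′ to 3′ along the gene's strand, with matches in capitals. They are the 2 starts of Runx3, shown because they differ in these letters, and those of Tbx21 and Prf1.
Runx3, first start (GRCm38.p6 chr4:135120395-135120644, plus strand): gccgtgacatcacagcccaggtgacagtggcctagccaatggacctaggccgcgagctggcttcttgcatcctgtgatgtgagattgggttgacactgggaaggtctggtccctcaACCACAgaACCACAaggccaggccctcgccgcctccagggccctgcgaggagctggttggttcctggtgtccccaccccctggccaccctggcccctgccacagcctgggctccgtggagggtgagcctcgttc
Runx3, second start (GRCm38.p6 chr4:135152295-135152544, plus strand): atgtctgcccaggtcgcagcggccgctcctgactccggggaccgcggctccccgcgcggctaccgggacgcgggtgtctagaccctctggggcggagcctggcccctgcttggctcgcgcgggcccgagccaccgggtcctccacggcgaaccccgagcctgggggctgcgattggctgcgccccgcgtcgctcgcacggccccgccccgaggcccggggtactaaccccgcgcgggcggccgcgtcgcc
Tbx21 (GRCm38.p6 chr11:97115332-97115581, minus strand): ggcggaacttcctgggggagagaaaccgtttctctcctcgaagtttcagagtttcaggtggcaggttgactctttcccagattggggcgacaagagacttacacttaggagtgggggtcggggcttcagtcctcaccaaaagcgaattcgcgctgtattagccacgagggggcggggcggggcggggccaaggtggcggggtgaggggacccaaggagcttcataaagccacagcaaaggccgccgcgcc
Prf1 (GRCm38.p6 chr10:61297586-61297835, plus strand): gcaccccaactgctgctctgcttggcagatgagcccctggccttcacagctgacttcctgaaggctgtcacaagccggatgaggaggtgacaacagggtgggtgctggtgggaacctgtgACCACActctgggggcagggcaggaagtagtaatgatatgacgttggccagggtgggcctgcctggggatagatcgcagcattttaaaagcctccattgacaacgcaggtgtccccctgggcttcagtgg

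The window of the first Runx3 start held 2 matches, both ACCACA, beginning 134 and 126 bases before the start. The window of the second Runx3 start and that of Tbx21 held none of these letters. The Prf1 window held 1 match, ACCACA, 130 bases before the start. Both Bcl2l11 windows and 1 of the 2 Irf8 windows held 1 match each, and those of Irf1, Junb and Cd244 (listed as Cd244a) held none. A match describes these letters only, and whether a wide peak covers any of these windows was not determined.

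Most of the 10 widest peaks lay outside the runs, as did most wide peaks. In 8 of the 10 the nearest wide peak was more than 50 kb away, against 71.8% of all wide peaks. The widest of all, 5413 bp at chr1:173487995-173493407, lay where the SLAM family receptor gene Cd244 is found, whose product 2B4 is carried by NK cells. Its nearest wide peak was 937 kb away, although 30 other peaks lay within 500 kb. The second, 5031 bp at chr6:47596610-47601640, had its nearest wide peak 184 kb away. The third, 3622 bp at chr2:77781559-77785180, had no other peak of any width within 795 kb on either side. The fourth, 3335 bp at chr11:74643701-74647035, had another wide peak 3.91 kb away, and the fifth, 2974 bp at chr8:48758589-48761562, had one 37.4 kb away.

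The other 5 of the 10 widest measured 2624 to 2731 bp. They lay at chr3:88257071-88259801, chr7:7250843-7253567, chr10:17441969-17444635, chr5:109985736-109988395 and chr13:17895047-17897670. Of the 10 widest, 4 had no other peak within 50 kb, and their median gap to the nearest peak was 45.6 kb. Among all wide peaks, 83.2% had another peak within 50 kb (exact 95% binomial interval 81.5 to 84.8%). The 10 are few, and the 40 peaks wider than 2000 bp as a whole had a median gap of 10.5 kb (95% interval 2.57 to 19.8 kb), close to that of all wide peaks given below.

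The next comparison asked whether wide peaks lay closer to other peaks than the narrower ones did. They lay slightly farther away. The median gap from a wide peak to the nearest other peak of any width was 11.1 kb (95% interval 9.76 to 12.3 kb), against 8.93 kb (8.64 to 9.15 kb) for the 17298 other autosomal peaks. Another peak lay within 10 kb of 48.1% of the wide peaks (979 of 2037, exact interval 45.9 to 50.3%) and of 52.4% of the others (51.7 to 53.2%). These intervals take each peak as independent and hold counting error alone. No p-value is given, since the peaks are of 1 library and are not replicates of a condition.

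The contrast was limited to gaps of intermediate size. Within 1000 bp a second peak lay beside 17.6% of the wide and 17.96% of the other peaks, and within 100 kb beside 92.8% and 93.4%. Nor did it grow with width: the share with a peak within 10 kb was 47.6% at widths of 801 to 900 bp, 50.4% at 901 to 1000 bp, 48.3% at 1001 to 1200 bp, 45.8% at 1201 to 1500 bp and 53.8% at 1501 to 2000 bp (208 peaks, 46.8 to 60.8%). Above 2000 bp it was 20 of 40 peaks (33.8 to 66.2%). Peaks of 601 to 700 bp had a share of 54.0%. The direction also turned when neighbouring peaks were first joined across gaps of up to 1000 bp: the peaks then wider than 1000 bp had a near peak more often than the rest, by 2.18 percentage points, where the listed peaks had one less often, with a difference of -4.37 points. Joining closes all gaps up to 1000 bp and makes 3256 peaks wide, many of them from 2 or more listed peaks, so the sign of this contrast depends on whether close peaks are counted as 1 or as several.

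**Figure D3:**
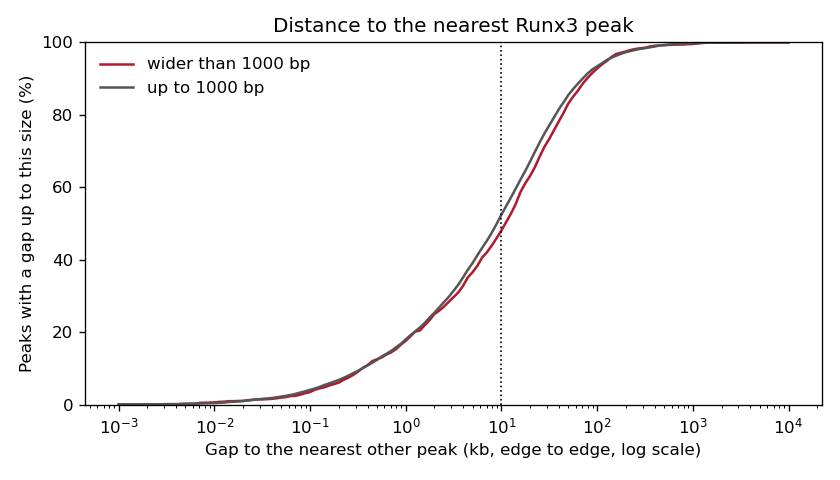
Cumulative share of peaks in percent (vertical axis) by the edge-to-edge gap to the nearest other peak in kb (horizontal axis, log scale), for wide peaks in red and other autosomal peaks in grey, with 10 kb as a dotted line. The curves run together below 1 kb and above 100 kb, and at 10 kb the wide peaks reach 48.1% and the others 52.4%.

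A further question was whether wide peaks had wide neighbours. If the 2037 labels were exchanged evenly over the autosomal peaks, 10.5% of the peaks adjacent to a wide peak would be wide. The observed share was 11.7%, 1.11 times that value, and the share next to the other peaks was 10.4%. In pairs, 238 of 19316 adjacent pairs were both wide (exact interval 209 to 270), where an even exchange gives 214, a value within the interval. The nearest peak was wide for 12.3% of the wide peaks (10.9 to 13.8%) and for 10.05% of the others (9.60 to 10.5%). Peaks that are each other's nearest count from both sides here, so these intervals are too narrow. The median width of the nearest peak was 602 bp beside both.

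Divided by distance, the numbers of wide pairs were likewise near those of an even exchange at the shortest gaps. Pairs with a gap of at most 1000 bp were both wide 22 times (20.5 by even exchange), pairs 1 to 10 kb apart 48 times (50.1), pairs 10 to 50 kb apart 86 times (74.1), pairs 50 to 200 kb apart 60 times (47.0), and pairs farther apart 22 times (22.6). Wide peaks in a row without a narrower one between them came to 194 rows of 2, 19 of 3 and 2 of 4. The rows of 4 lay on chromosome 11 (116350756 to 116715296, widths 1153, 1023, 1373 and 1778 bp) and on chromosome 16 (11134022 to 11254901, widths 1165, 1559, 1015 and 1497 bp). Of the 248 peaks wider than 1500 bp, no 2 were adjacent, where even exchange gives 3.17 pairs. The ratio of 1.11 was 1.03 with the limit at 800 bp, 1.06 with peaks up to 100 bp apart joined and 1.00 with those up to 1000 bp apart joined.

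Distance was also measured to wide peaks alone, passing over the narrower ones. Another wide peak lay within 50 kb of 28.2% of the wide peaks (26.2 to 30.2%), and a wide peak lay within 50 kb of 26.4% of the others (25.7 to 27.0%). The median gap to the nearest wide peak was 140 kb (128 to 154 kb) from a wide peak and 151 kb (146 to 156 kb) from another peak. The intervals overlap for both of these measures, and pairs of wide peaks count from both sides in them too.

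Chromosomes carried wide peaks nearly in proportion to all peaks. The wide share lay between 9.19% on chromosome 13 (73 of 794) and 13.0% on chromosome 8 (134 of 1031), and the exact interval held the background of 10.5% on 18 of the 19 autosomes. The exception was chromosome 8 (11.004 to 15.2%). The intervals were not widened for the comparison of 19 autosomes, and the cause of the higher share on chromosome 8 was not tested. Chromosome 11, with the most peaks, held 8.98% of the wide and 8.60% of all autosomal peaks. By length, wide peaks ranged from 0.575 per Mb of span on chromosome 14 to 1.54 per Mb on chromosome 11. The density of all peaks per Mb was not calculated. The median width of the wide peaks differed little, from 1130 bp on chromosome 4 to 1209 bp on chromosome 13. Along the chromosomes, the wide share was between 10.2 and 11.1% in each of 5 equal parts of the span.

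**Figure D4:**
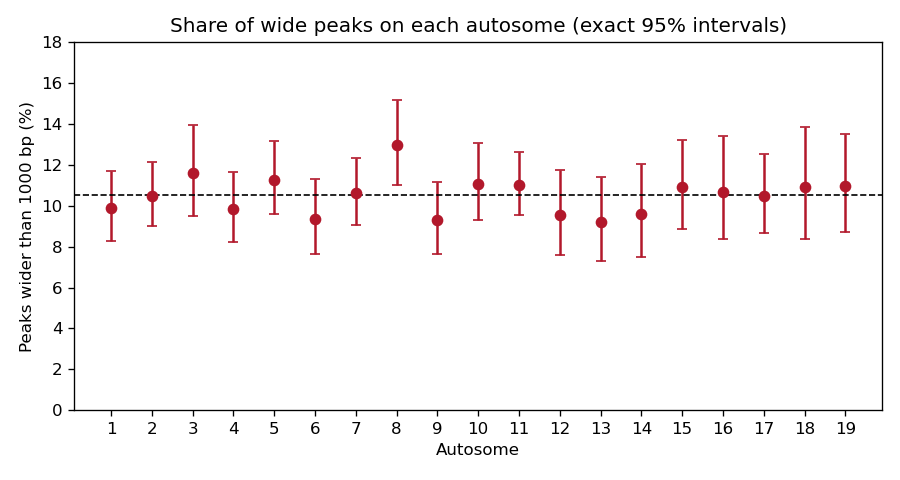
Share of peaks wider than 1000 bp in percent (vertical axis) on each of the 19 autosomes (horizontal axis), with exact 95% binomial intervals as bars and the share over all autosomal peaks as a dashed line. Chromosome 8, at 13.0%, is the only autosome whose interval lies clear of the line at 10.5%.

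In bins of 1 Mb, wide peaks followed the number of peaks, with a few bins above it. Of the 1771 autosomal bins with a peak, 796 held no wide peak, 486 held 1, 413 held 2 to 4 and 76 held 5 or more. An even exchange of the labels gives 66.8 bins with 5 or more. For 8 or more wide peaks, 16 bins were counted and even exchange gives 7.79. The wide share was 10.4% in bins of 1 to 4 peaks (8.78 to 12.2%), 10.3% in bins of 5 to 9, 10.1% in bins of 10 to 19 and 10.9% in bins of 20 or more (10.3 to 11.6%). The share in the bins of 20 or more exceeded that in the bins of 1 to 4 by 0.55 percentage points, and by 0.99 points with bins shifted by 0.5 Mb, 1.04 with peaks up to 100 bp apart joined, 1.21 with X included and 4.53 with peaks up to 1000 bp apart joined. The interval of the share in the dense bins held that of the sparse bins as listed, and did not under these 4 settings. It leaves out the error of the sparse share. Joining makes wide peaks out of close ones, so the 2 values under joining cannot show whether the listed wide peaks favour dense bins. Peaks that stood alone, with no other within 10 kb, were wide in 11.4% of cases (10.8 to 12.1%), those in stretches of 2 in 9.75%, in stretches of 3 to 4 in 9.27% (8.33 to 10.3%) and in stretches of 5 or more in 10.6%.

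The fullest bins lay side by side on chromosome 10. From 80 to 81 Mb, 18 of 80 peaks were wide (22.5%), and from 79 to 80 Mb, 14 of 64 (21.9%). Together they held 32 of 144 (22.2%, exact interval 15.7 to 29.9%, which leaves out that they were picked for their counts), while the rest of chromosome 10, lower by this choice, stood at 9.41%. Chromosome 4 from 134 to 135 Mb, the bin with the Runx3 run, was next with 11 of 69 (15.9%, 8.24 to 26.7%). Bins with 10 wide peaks lay on chromosome 7 from 52 to 53 Mb (of 58) and on chromosome 11 from 69 to 70 Mb (of 41). Bins with 9 lay on chromosome 2 from 166 to 167 Mb (of 51), chromosome 15 from 76 to 77 Mb (of 48), chromosome 7 from 29 to 30 Mb (of 38) and chromosome 8 from 86 to 87 Mb (of 36), and of the bins with 8, the one with most peaks, 8 of 50 on chromosome 8 from 73 to 74 Mb, completed the 10. The bin of Il2rb, chromosome 15 from 78 to 79 Mb, ranked among the densest with 52 peaks and held 6 wide ones (11.5%).

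Chromosome 8 held 5 of the 16 bins with 8 or more wide peaks, and these 5 held 41 wide peaks among 201 (20.4%). The rest of the chromosome stood at 11.2%, which had to be lower because the bins left out were those with the most wide peaks. Apart from chromosome 10 above, other chromosomes were not treated in this way. Of the 51 runs of 3 or more wide peaks, 9 lay on chromosome 8, 7 each on chromosomes 10 and 11 and 6 on chromosome 7. Chromosomes 8, 10, 11 and 7 held 5.33, 5.75, 8.60 and 7.36% of all autosomal peaks. No value under even exchange was calculated for these run counts.

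**Figure D5:**
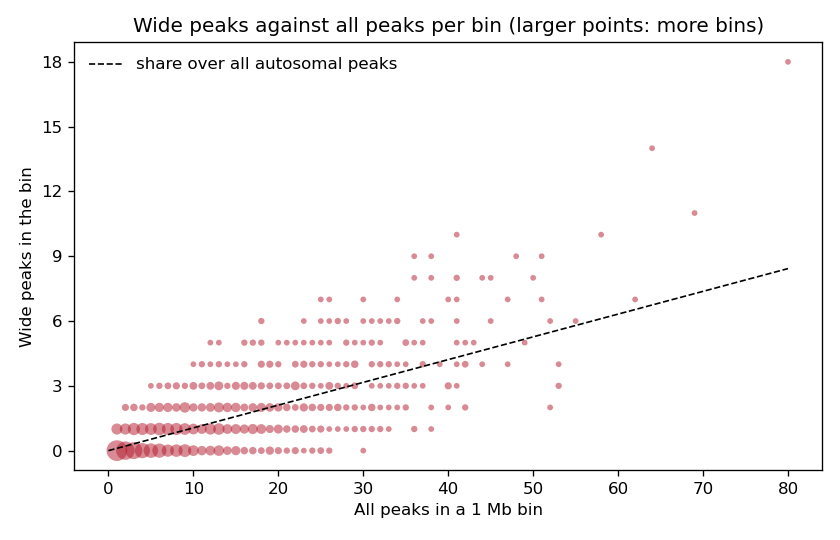
Wide peaks (vertical axis) against all peaks (horizontal axis) in each 1 Mb bin, with larger points where more bins share a position and the share over all autosomal peaks as a dashed line. Most bins scatter around the line, and the bins of chromosome 10 with 18 and 14 wide peaks stand above it.

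Some dense bins held no wide peak, at a number near that of an even exchange. Of the 286 bins with 20 or more peaks, 19 held no wide peak (even exchange gives 15.2), and 22 had more than 20% wide (15.5). The fullest bin without a wide peak was chromosome 6 from 54 to 55 Mb, with 0 of 30 (exact upper bound 11.6%). Chromosome 6 from 129 to 130 Mb, in the part that holds NK cell receptor genes of the Klr families, had 25 peaks and no wide one (upper bound 13.7%), with a median width of 511 bp. Chromosome 9 from 32 to 33 Mb, where the transcription factor gene Ets1 lies, had 26 peaks, none wide (upper bound 13.2%). These bounds hold the background of 10.5%, so a lower share of wide peaks was not shown for these bins, and they were chosen after their values were seen. On chromosome 7, bins at 31 to 32 Mb and at 134 to 135 Mb, each with 53 peaks, had 3 wide peaks apiece (5.66%). Their exact interval, 1.18 to 15.7%, holds the background as well.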

How the data were processed

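The submitters sequenced 50 bp reads and aligned them with ELAND, per the labels' protocols. Per the submitters' processing notes, CASAVA 1.8.2 was used with mm9. How peaks were called, and with what use of the serum library, was not given in the sources used here. As deposited by the authors, the list has a chromosome, a start (counted from 0) and an end for each peak, with no header and no score. Depth is therefore unknown, and it is not known whether the list is complete. Printed starts count from 1.

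Widths are end minus start. Gaps are edge to edge. Peaks were put in 1 Mb bins by midpoint. Values under an even exchange of the wide labels were calculated from the counts, without drawing or a p-value. Intervals are exact 95% binomial, and for medians binomial order-statistic, intervals. Python 3.11.15, pandas 2.3.3 and scipy 1.17.1 were used, and the functions were tested on lists made with even and with paired wide peaks.

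Items named are the 10 widest peaks, the 10 bins and the 10 runs with the most wide peaks, and 2 peaks on each side of the limit; other runs and bins were named after their values were seen. The members, distances and items were chosen with earlier results of these data known. Sequences are RefSeq windows in GRCm38.p6. These windows were not used to assign peaks to genes.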

Additional observations from a re-analysis of the deposited data

How the results depend on the processing

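The results were recomputed 54 times under other settings. The value stayed within its 95% interval, or for counts within 1.5 times, in 36 of them and moved in 18; the cause was not tested, except where the setting changes the number of wide peaks by construction. The removal of the 2 fullest bins of chromosome 10 was chosen after seeing the data, and no value moved under it. Wide peaks numbered 4455 above 800 bp, 248 above 1500 bp and 3256 when peaks up to 1000 bp apart were joined. Bins with 5 or more wide peaks then numbered 305, 2 and 188, and 30 with bins of 500 kb. With the limit at 1500 bp, the ratio of adjacent wide peaks to even exchange was 0 (95% interval 0 to 1.17). The ratio of median gaps was 0.916 (0.598 to 1.40), where it was 1.24 at 1000 bp. The difference in the share with a peak within 10 kb was 1.27 percentage points (-5.14 to 7.61), where it was -4.37 at 1000 bp. The ratio of shares with a wide peak within 50 kb was 1.40 (0.810 to 2.23). Each of these intervals at 1500 bp holds no difference, so no change of direction was shown. The highest chromosome share was 2.69 times the lowest (1.41 at 1000 bp). With peaks up to 1000 bp apart joined, the ratio of adjacent wide peaks to even exchange was 1.00 (within its interval). The ratio of median gaps was then 0.924, and the difference in the share with a peak within 10 kb was 2.18 percentage points. The wide share in bins of 20 or more peaks then exceeded that in bins of 1 to 4 by 4.53 percentage points (0.55 as listed). Joining itself makes wide peaks out of close ones. The ratio of shares with a wide peak nearby was 1.07 as reported, 0.984 with the limit at 800 bp and 1.14 at a distance of 10 kb. With X included, the highest chromosome share was 3.12 times the lowest, which was then that of X (13 of 312). No paired analysis was possible because only 1 library was made per antibody. Depth is not in the list, so it cannot be said which peaks are wide because more reads were gathered there.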

Other observations

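Wide peaks far from any other peak were rare but present: 15 of 2037 (0.736%, exact 95% interval 0.413 to 1.21%) had no other peak within 500 kb, against 131 of 17298 other autosomal peaks (0.757%). The most isolated, 1095 bp on chromosome 14 (83896009 to 83897103), was 3.24 Mb from the nearest peak, and the next, 1012 bp on chromosome 8 (40068619 to 40069630), was 1.32 Mb from it. These positions were chosen after their values were seen.

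Of the 51 runs of 3 or more wide peaks, 10 held wide peaks alone, with no narrower peak between them, and the median share of wide peaks over the 51 was 57.1%. The X chromosome, outside the rule, held 13 wide peaks among 312. This is a lower share than the 10.5% over the autosomes and than that of any autosome (lowest 9.19%, chromosome 13). The cause was not tested.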
